A study of Mus musculus with 15 samples.

Results

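The genes described here are 29 mouse genes of the DNA damage response and DNA repair, followed across medulloblastomas and normal cerebellum. They were taken from a list of named genes, and each was found on the array through the RefSeq transcript that its probe was designed on. Of the 29 genes, 28 had a probe named in this way and all 28 passed the filter on dim probes. They are 28 of 21661 genes tested in the series, of which 13424 carried a gene symbol. Atr, the checkpoint kinase activated by stretches of single-stranded DNA, had no probe named through RefSeq and was not analysed here.

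The study hybridised total RNA from 12 medulloblastomas and 3 normal cerebella to single-colour Agilent arrays, 1 array per sample. The tumours formed 4 groups of 3, and the labels mark each tumour as R-type or S-type, letters that they do not explain. The groups were R-type after 1.5 Gy (MB10 to MB12), R-type after 0.2 Gy (MB7 to MB9), S-type after 0.2 Gy (MB4 to MB6), S-type with 0 Gy (MB1 to MB3) and unirradiated normal cerebellum. All tumour mice were Ptch1+/- on the C3B6F1 background, so they carried 1 disrupted copy of Ptch1, the receptor that restrains Hedgehog signalling. Irradiation with X-rays took place on postnatal day 1, and tumours were taken from mice observed until moribund. The labels give no strain or genotype for the normal cerebella. The age label, which has no unit, ran from 87 to 127 in R-type mice, from 128 to 173 in S-type mice and from 103 to 113 in the normal mice. All mice were female except MB6, a male with an S-type tumour. The 1.5 Gy dose is represented by R-type tumours alone and the 0 Gy dose by S-type tumours alone, so that tumour type, dose and age cannot be told apart outside the 0.2 Gy groups, and type and age cannot be told apart within them.

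DNA is damaged both by radiation and by the normal work of copying it, and cells hold a separate repair route for each kind of lesion. Double-strand breaks are bound by the complex of Mre11a, Rad50 and Nbn, which activates the kinase Atm. Some are rejoined directly by non-homologous end joining, which works at all times of the cell cycle. Others are copied from the sister chromatid by homologous recombination, which needs replicated DNA. The Fanconi anaemia pathway opens crosslinked DNA and protects stalled replication forks, and the checkpoint kinases Chek1 and Chek2 hold the cell cycle while repair proceeds. Granule neuron precursors of the cerebellum divide rapidly after birth under Hedgehog signalling and are the known source of this tumour in Ptch1+/- mice. In the adult cerebellum almost all neurons have left the cell cycle.

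The promoters of 24 of the 29 genes were found in the RefSeq promoter table of build GRCm38.p6. The 250 bases before each start were searched on both strands for E2F-type letters (TTTCCCGC, TTTCGCGC, TTTGCCGC or TTTGGCGC), known from promoters of genes used in DNA replication, for CCAAT, and for TTTGAA, the core of the element called CHR. No motif holds another within its letters. The E2F-type letters stood in 3 of the 24 genes (12.5%). Counted by promoter this was 3 of 26 (11.5%), compared with 1.86% of 32851 promoters of the same length. CCAAT stood in 12 of the 24 genes and 13 of the 26 promoters, compared with 33.8% of all promoters. TTTGAA stood in none of the 24, compared with 16.0% of all promoters. Base composition was not matched in these shares. Among genes higher in tumours by 2 or more on the log2 scale, 2 of 12 held the E2F-type letters and 8 held CCAAT. Among genes changed by less than 2, 1 of 11 held the E2F-type letters and 4 held CCAAT. Whether the letters bear on the changes was not tested. The 3 genes with the E2F-type letters were Brca2 and Chek2, which had large changes between tumour and normal cerebellum, and Xrcc6, which had a small one. Their sequences are shown with that of Brip1, at least 35.8-fold higher in tumours, which held 3 CCAAT boxes and no E2F-type letters. Capitals mark the matches, which are GCGGGAAA for the E2F-type letters and CCAAT or ATTGG, its reverse complement. The Brca2 sequence is the plus strand of chr5:150522371-150522620, the Chek2 sequence the plus strand of chr5:110839733-110839982, the Xrcc6 sequence the plus strand of chr15:82016119-82016368 and the Brip1 sequence the minus strand of chr11:86201194-86201443.
Brca2: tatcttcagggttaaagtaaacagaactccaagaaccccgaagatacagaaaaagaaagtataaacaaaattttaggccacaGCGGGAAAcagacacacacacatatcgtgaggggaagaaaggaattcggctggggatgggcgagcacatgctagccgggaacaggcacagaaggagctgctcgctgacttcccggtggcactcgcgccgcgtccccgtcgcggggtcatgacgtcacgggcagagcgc
Chek2: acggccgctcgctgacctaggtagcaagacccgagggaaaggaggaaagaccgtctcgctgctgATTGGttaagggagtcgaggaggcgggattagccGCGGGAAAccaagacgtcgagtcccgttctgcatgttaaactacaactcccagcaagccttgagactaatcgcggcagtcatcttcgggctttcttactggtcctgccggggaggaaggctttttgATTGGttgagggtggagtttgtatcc
Xrcc6: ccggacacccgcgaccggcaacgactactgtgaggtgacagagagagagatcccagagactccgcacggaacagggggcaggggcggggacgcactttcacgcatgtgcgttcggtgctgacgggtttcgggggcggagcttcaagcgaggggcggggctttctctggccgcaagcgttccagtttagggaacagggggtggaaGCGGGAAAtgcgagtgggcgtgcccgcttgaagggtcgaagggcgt
Brip1: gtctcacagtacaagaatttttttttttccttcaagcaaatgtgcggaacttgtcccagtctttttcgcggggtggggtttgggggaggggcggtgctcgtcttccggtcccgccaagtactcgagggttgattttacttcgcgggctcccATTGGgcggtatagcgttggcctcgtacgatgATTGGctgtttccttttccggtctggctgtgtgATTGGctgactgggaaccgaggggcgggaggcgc

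All levels below are log2 signals minus the log2 of the array's own 75th percentile, so that 0 is that percentile and a difference of 1 is a factor of 2. Between 59.1% and 66.5% of the probes on each array were well above background, and no member probe was saturated. Levels of different genes come from different probes and are not set against each other. The tissue labels were checked with marker genes. All 8 Purkinje cell markers and all 7 markers of mature granule neurons were lower in tumours, and the mean of the Purkinje list lay between -3.09 and -1.07 on the tumour arrays, against 4.76 to 4.89 on the normal arrays. Of 9 granule neuron precursor markers, 6 were higher in tumours and 1 lower. Of 8 markers each of astrocytes and oligodendrocytes, 7 were lower, and all 8 tested markers of microglia were higher. All 16 genes of a list for dividing cells were higher, with Mki67 at a median of 5.84 on the tumour arrays (5.50 to 6.04), against -4.96, -4.49 and -3.02 on the normal arrays. Ptch1 itself was at -3.15, -2.71 and -3.06 in R-type tumours after 1.5 Gy, -3.16, -2.98 and -3.16 in R-type after 0.2 Gy, -1.60, -1.76 and -2.08 in S-type after 0.2 Gy, -1.54, -1.98 and -1.46 in S-type with 0 Gy, and -3.03, -3.20 and -3.33 in normal cerebellum. The labels do not say which part of Ptch1 is disrupted, so its probe does not test the genotype. These are whole tissues, in which fewer cells of a type and less RNA per cell cannot be told apart.

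In tumours, compared with normal cerebellum, 26 of the 28 repair genes were higher, none was lower and 2 did not pass the test (limma's moderated test over all genes, Benjamini-Hochberg adjusted p under 0.05). Of all genes tested 78.9% passed in this comparison, 43.5% higher and 35.4% lower. Brip1, Fancd2 and Chek2, which are among the 26, were well above background on no normal array. They met the filter on dim probes through the tumours. The members' median difference was 1.81 on the log2 scale, compared with 0.14 for all genes tested. In 13 members the difference was 2 or more, as it was in 10.6% of all genes tested, and in 24 members every tumour was above every normal cerebellum, as in 36.4% of all genes. The dividing-cell list was higher by a median of 7.97 (7.34 with dim genes at their bounds), and its mean lay between 2.90 and 3.48 on the tumour arrays, against -4.63 to -4.13 on the normal arrays, where 5 of the 16 (Top2a, Ccnb1, Cdk1, Aurkb and Kif11) were not well above background. Its part in the result was not tested.

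**Figure D1:**
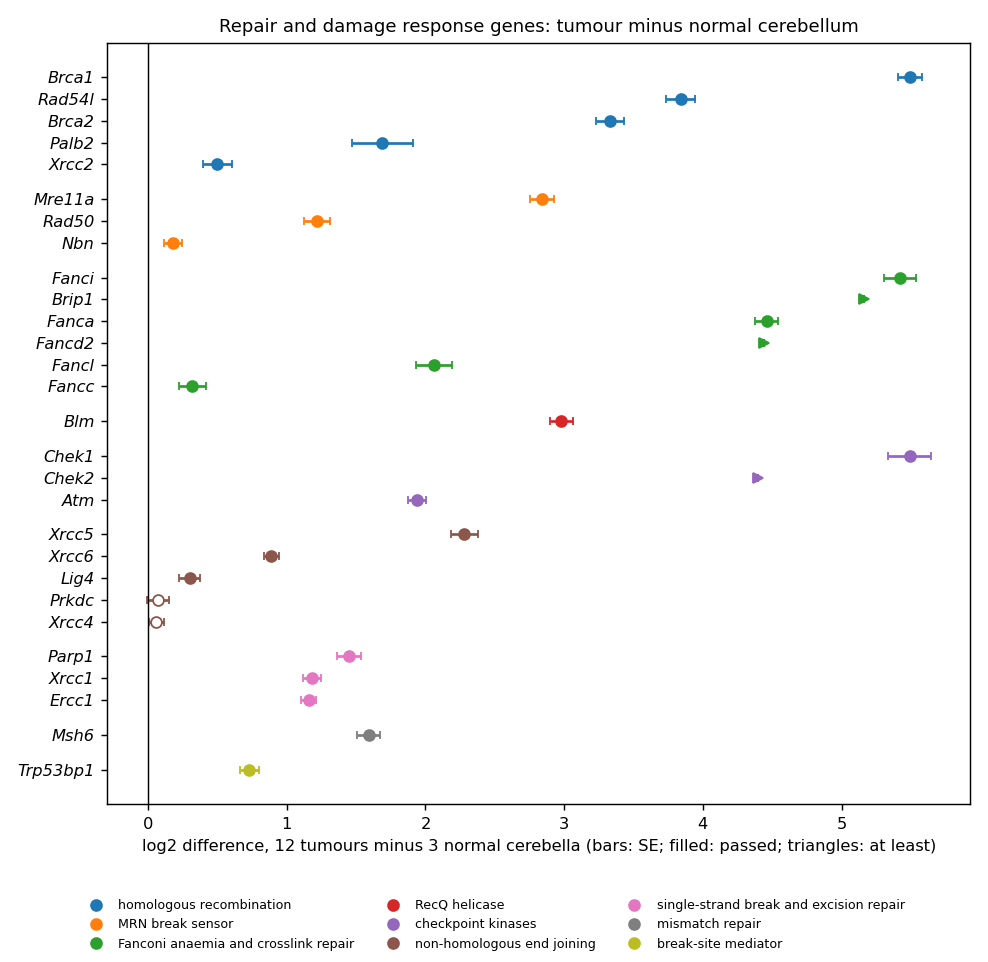
Difference between 12 tumours and 3 normal cerebella for each of the 28 repair genes, on the log2 scale, grouped by role. Circles are differences of means, bars are standard errors, triangles are lower bounds for genes not well above background in normal cerebellum (Brip1, Fancd2 and Chek2), and open circles (Prkdc and Xrcc4) did not pass the test. Each gene is shown by its brightest probe. Brca1 and Chek1 lie highest among the genes drawn as circles, at 5.49 each, though Chek1 was not well above background on every normal array. The genes of non-homologous end joining lie between 0.06 and 2.28.

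The genes of homologous recombination were all higher in tumours, 5 of 5, with a median difference of 3.33. Brca1, which steers breaks towards recombination, was at 2.21, 2.23 and 2.26 in R-type tumours after 1.5 Gy, 1.99, 2.15 and 2.13 in R-type after 0.2 Gy, 2.15, 2.06 and 1.83 in S-type after 0.2 Gy, 2.03, 1.70 and 2.08 in S-type with 0 Gy, and -3.47, -3.36 and -3.44 in normal cerebellum. The 12 tumours lay within 0.56 of each other and far above the normal arrays. The difference was 5.49 (SE 0.0867, adjusted p = 1.41e-13), or 45.0-fold. A second Brca1 probe gave 3.95 (adjusted p = 6.4e-07). Rad54l, a motor protein that helps the recombinase invade the sister chromatid, was higher by 3.84, and Brca2, which loads that recombinase onto DNA, by 3.33. The second Brca2 probe gave 2.79. Palb2, which joins Brca1 to Brca2, was higher by 1.69 (SE 0.217), with the least even normal arrays of the group (-3.73, -4.99 and -4.94). Xrcc2, a relative of the recombinase, was higher by 0.50 (adjusted p = 0.000863), and its second probe gave 1.29. With no scaling between arrays the Xrcc2 difference was 0.33, and with the mean of its probes 0.90.

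By the brightest probe of each gene, all 3 genes of the complex that binds broken ends passed as higher in tumours. Mre11a, its nuclease, was at 1.54, 1.65 and 1.59 in R-type tumours after 1.5 Gy, 1.47, 1.69 and 1.50 in R-type after 0.2 Gy, 1.06, 1.09 and 0.86 in S-type after 0.2 Gy, 1.12, 0.74 and 1.15 in S-type with 0 Gy, and -1.61, -1.53 and -1.54 in normal cerebellum. It was higher in tumours by 2.84 (SE 0.0893, adjusted p = 4.23e-11), and all tumours stood above all normals. A second Mre11a probe gave 1.23. Rad50, the zinc-hook subunit that holds both ends together, was higher by 1.22 (adjusted p = 1.26e-07). Nbn, which brings Atm to the complex, was higher by 0.18 (adjusted p = 0.0177), with 2.13 ± 0.14 in tumours (SD, n = 12) and 1.95 ± 0.02 in normal cerebellum (SD, n = 3). The Nbn groups overlapped and its second probe gave 0.03 (adjusted p = 0.753). Nbn no longer passed without normal array 1 (adjusted p = 0.0613) or normal array 2 (adjusted p = 0.0584), nor with the mean of its probes (0.11) or with no scaling between arrays (0.01).

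All 6 Fanconi anaemia genes were higher in tumours. Brip1, the helicase that works with Brca1, was not well above background in any normal cerebellum. It was at -0.53, -0.30 and -0.39 in R-type tumours after 1.5 Gy, -0.54, -0.45 and -0.38 in R-type after 0.2 Gy, -0.06, -0.21 and -0.40 in S-type after 0.2 Gy, -0.20, -0.62 and -0.35 in S-type with 0 Gy, and -7.82, -7.44 and -7.75 in normal cerebellum. It was at least 35.8-fold higher in tumours, a bound taken against the lowest signal well above background on each normal array. The adjusted p of 8.91e-14 is for the signals as measured and does not test the bound. Fancd2, the protein whose ubiquitination switches the pathway on, was likewise not well above background in the normals.

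Fancd2 had a lowest, median and highest tumour value of -1.77, -1.02 and -0.57, against -7.85, -7.77 and -7.76 in normal cerebellum. It was at least 21.7-fold higher by the same kind of bound. Its adjusted p for the signals as measured was 1.11e-11. Fanci, its partner in the ubiquitinated pair, was at 1.84, 1.99 and 1.84 in R-type tumours after 1.5 Gy, 2.01, 1.92 and 1.92 in R-type after 0.2 Gy, 1.97, 1.88 and 1.73 in S-type after 0.2 Gy, 1.91, 1.55 and 1.72 in S-type with 0 Gy, and -3.65, -3.21 and -3.84 in normal cerebellum. Both genes of the pair stood far above the normal arrays in every tumour, Fanci by 5.42 (adjusted p = 1.58e-12). Fanca, part of the core complex that carries the ligase, was higher by 4.46, and Fancl, the ligase subunit, by 2.06. Second probes of Fanci and Fanca, well above background on 2 and 0 arrays, gave 1.94 and 1.58. The second Fancl probe gave 2.44. The group's median difference was 4.94, or 4.45 with Brip1 and Fancd2 at their bounds. Both still passed with a normexp background correction in place of the scanner's own.

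Fancc, another core complex subunit, was the exception in the Fanconi group. It was at -1.30, -1.18 and -0.80 in R-type tumours after 1.5 Gy, -1.44, -1.45 and -1.36 in R-type after 0.2 Gy, -0.29, -0.18 and -0.19 in S-type after 0.2 Gy, -0.39, -0.61 and -0.55 in S-type with 0 Gy, and -1.30, -1.03 and -1.08 in normal cerebellum. All 6 S-type tumours lay above the normal arrays, whereas the R-type tumours lay around or below them. Averaged over the tumours Fancc was higher by 0.32 (adjusted p = 0.00897), a call lost without normal array 1 (adjusted p = 0.0731) and with no scaling between arrays (0.15, adjusted p = 0.255). Against the same 3 normal arrays, the group differences were 0.04 for R-type at 1.5 Gy (adjusted p = 0.768), -0.28 for R-type at 0.2 Gy (adjusted p = 0.0585), 0.92 for S-type at 0.2 Gy (adjusted p = 2.68e-05) and 0.62 for S-type at 0 Gy (adjusted p = 0.000654).

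The checkpoint kinases and the RecQ helicase were higher in every tumour. Chek1, which restrains entry into mitosis when replication stalls, was at 0.06, -0.07 and 0.19 in R-type tumours after 1.5 Gy, -0.09, 0.12 and 0.03 in R-type after 0.2 Gy, 0.02, -0.12 and -0.29 in S-type after 0.2 Gy, -0.05, -0.50 and -0.02 in S-type with 0 Gy, and -5.04, -5.75 and -5.85 in normal cerebellum. The difference was 5.49 (SE 0.156, adjusted p = 1.85e-11), with 1 of the 3 normal arrays well above background, and 3.98 with a normexp background correction. Chek2, the kinase that Atm switches on after breaks, was at -1.26, -0.87 and -1.01 in R-type tumours after 1.5 Gy, -1.17, -0.96 and -1.04 in R-type after 0.2 Gy, -0.94, -1.27 and -1.49 in S-type after 0.2 Gy, -1.09, -1.26 and -1.24 in S-type with 0 Gy, and -6.15, -5.53 and -5.87 in normal cerebellum. No normal array was well above background for Chek2, and it was at least 21.1-fold higher in tumours by the same kind of bound. Its adjusted p for the signals as measured was 1.85e-11. Atm, the kinase at the head of the break response, was higher by 1.94 (SE 0.0657, adjusted p = 8.07e-11). Second probes gave 5.51 for Chek1, 3.47 for Chek2 and 1.72 for Atm. Blm, the helicase that dissolves recombination intermediates, had its lowest, median and highest tumour values at 1.28, 1.65 and 1.79, against -1.35, -1.37 and -1.35 in normal cerebellum, a difference of 2.98 (adjusted p = 1.36e-11).

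**Figure D2:**
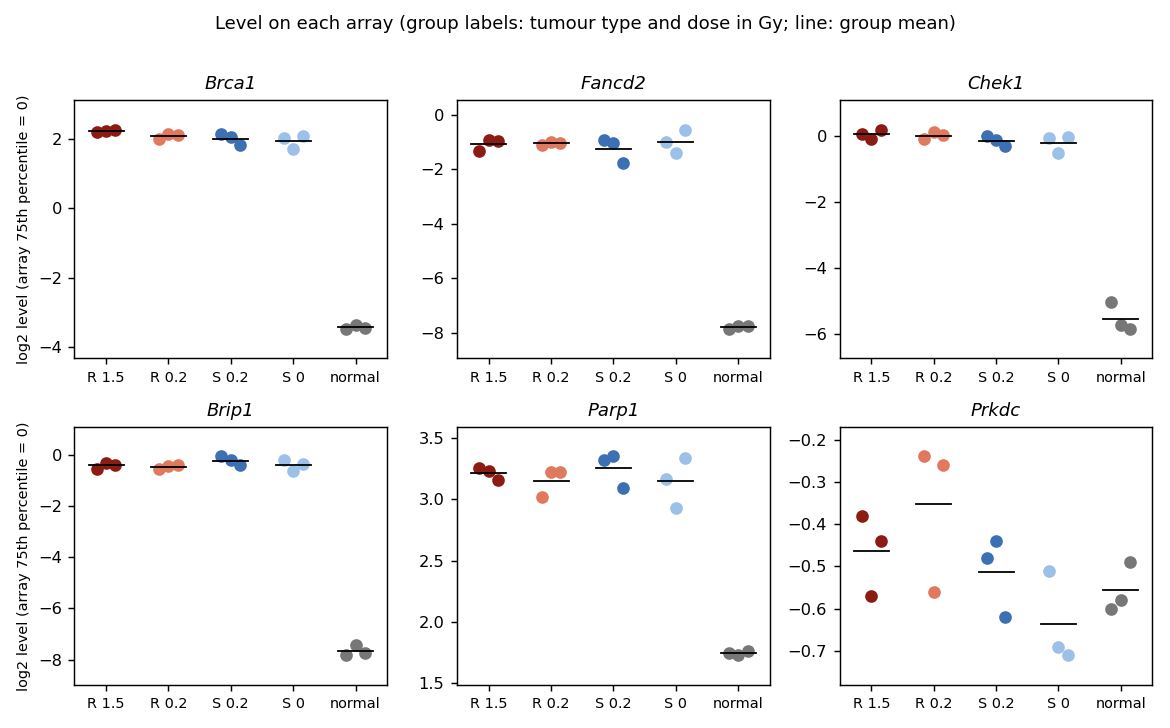
Level of 6 repair genes on each of the 15 arrays, as log2 signal relative to the array's 75th percentile, with a line at each group mean (R and S give the tumour type, numbers the dose in Gy). Brca1 and Chek1 separate all tumours from the 3 normal cerebella by over 4 on this scale, Parp1 by less, and Prkdc overlaps. The normal values of Fancd2 and Brip1, and some of those of Chek1, are signals not well above background.

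Non-homologous end joining changed least among the routes with several members, with a median difference of 0.30, and 3 of its 5 genes were higher. Xrcc5 and Xrcc6 encode both subunits of Ku, the ring that caps broken ends, and differed in size of change. Xrcc5 had a lowest, median and highest tumour value of 2.13, 2.55 and 2.88, against 0.31, 0.43 and 0.09 in normal cerebellum, and was higher by 2.28 (adjusted p = 6.44e-10). Xrcc6 was higher by 0.89 (adjusted p = 1.37e-08). Lig4, the ligase that seals the ends, was higher by 0.30 (adjusted p = 0.0033), but its second probe gave 0.01 (adjusted p = 0.865), and it did not pass with no scaling between arrays (0.13, adjusted p = 0.284) or with the mean of its probes (adjusted p = 0.0561). Prkdc, the kinase that Ku recruits, was at -0.38, -0.57 and -0.44 in R-type tumours after 1.5 Gy, -0.24, -0.56 and -0.26 in R-type after 0.2 Gy, -0.48, -0.44 and -0.62 in S-type after 0.2 Gy, -0.51, -0.69 and -0.71 in S-type with 0 Gy, and -0.60, -0.58 and -0.49 in normal cerebellum. These values overlapped, with a difference of 0.07 (SE 0.0801, adjusted p = 0.459). Xrcc4, the partner of Lig4, differed by 0.06 (SE 0.0562, adjusted p = 0.306).

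The members of the excision, mismatch and break-site groups were each higher in tumours by moderate amounts. Parp1, which marks single-strand breaks, had lowest, median and highest tumour values of 2.93, 3.22 and 3.35, against 1.75, 1.73 and 1.76 in normal cerebellum, and was higher by 1.45 (adjusted p = 1.08e-08). Xrcc1, the scaffold of single-strand break repair, was higher by 1.18, and Ercc1, part of the nuclease that cuts out bulky lesions, by 1.16. Msh6, which recognises mismatched bases, had tumour values of 3.71, 4.14 and 4.36 in the same order, against 2.47, 2.47 and 2.67 in normal cerebellum, and was higher by 1.59 (adjusted p = 4.42e-09). Trp53bp1, the mediator that protects broken ends from being cut back, had tumour values of 1.95, 2.18 and 2.30, against 1.36, 1.40 and 1.53 in normal cerebellum, and was higher by 0.73 (adjusted p = 7.72e-07). The second Trp53bp1 probe gave 0.42. All 5 genes had tumour values that did not overlap the normal ones.

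Another 123 tested repair genes, of 133 listed, were read in the same fit. In tumours 97 were higher, 17 lower and 9 did not pass, with a median difference of 0.84. Other homologous recombination genes had the highest median of these lists, 2.72 (2.54 with bounds), with 21 of 23 higher and 2 lower. Among them the nuclease Exo1 was higher by 7.82 and the nucleases Gen1 and Eme1 by at least 7.00-fold and 25.0-fold, while Mus81, which cuts DNA as the partner of Eme1, was lower, at -1.04. The other Fanconi genes had a median of 0.62, with 9 of 12 higher and 1 lower (Slx4, -0.15), led by the ubiquitin enzyme Ube2t (3.18), Fancb (2.22) and the deubiquitinase Usp1 (1.90).

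Checkpoint and signalling genes outside the 29 were higher in 16 of 23 and lower in 5, with a median of 0.94. Clspn, the adaptor that lets Chek1 be activated, was at least 13.5-fold higher, Mad2l2 higher by 3.36 and Topbp1 by 2.81. End joining genes were higher in 9 of 10 and lower in 1 (Paxx, -2.37), with a median of 0.69, and among those higher were Polq (3.93), the polymerase of alternative end joining, Aplf (2.06) and Tdp1 (1.68). Base excision genes were higher in 15 of 18 and lower in 3, with a median of 1.30, and the glycosylase Neil3 was at least 86.5-fold higher, Ung higher by 3.97 and the endonuclease Apex1 by 3.10. Nucleotide excision genes had the lowest median, 0.33, with 12 of 18 higher and 3 lower, where Gtf2h3 was higher by 1.48 and Gtf2h2 by 1.22. Mismatch repair genes were higher in 5 of 6 (Pms1 1.35), translesion and direct reversal genes in 6 of 9, with 2 lower (Rad18 3.40, Pcna 2.82, Poli 1.04, against Polk -0.44 and Rev3l -0.24), and RecQ helicases in 4 of 4 (Wrn 1.80, Recql 1.76, Recql4 1.45).

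Between the 6 R-type and the 6 S-type tumours, 8 of the 28 repair genes passed the test, with 6 higher and 2 lower in R-type. Of all genes tested 21.0% passed, 10.9% higher and 10.1% lower, so that the members' share of calls was near that of all genes. Their median difference was 0.12, compared with 0.02 for all genes, and -0.10 with no scaling between arrays, compared with -0.20. The dividing-cell list had a mean of 3.16 to 3.43 on R-type arrays and 2.90 to 3.48 on S-type arrays. The mean of the mature granule neuron markers was -2.38 to -1.12 on R-type and -1.59 to 0.84 on S-type arrays, and that of the microglia markers 1.12 to 1.81 and 1.45 to 1.90 in the same order. The mean of the choroid plexus markers was -4.62 to -3.97 on R-type and -3.90 to -0.59 on S-type arrays, with 1 of 5 called lower. The S-type range was -3.90 to -3.59 after 0.2 Gy and -3.28 to -0.59 with 0 Gy. Ttr was not well above background on any R-type array, nor on any S-type array after 0.2 Gy. At 0.2 Gy all 5 choroid plexus markers failed to pass between the types, with differences from -2.69 to 0.33 and a median of 0.20. The means of the list did not overlap there, at -4.62 to -4.00 on R-type and -3.90 to -3.59 on S-type arrays. The part of these marker lists in the differences was not tested. In 2 members the groups did not overlap, as in 9.34% of all genes. Those were Mre11a, higher in R-type, and Fancc, lower in R-type. Both, and Rad50, passed under all 24 alternative settings run for this comparison, including a block for the slide and the loss of any 1 array.

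**Figure D3:**
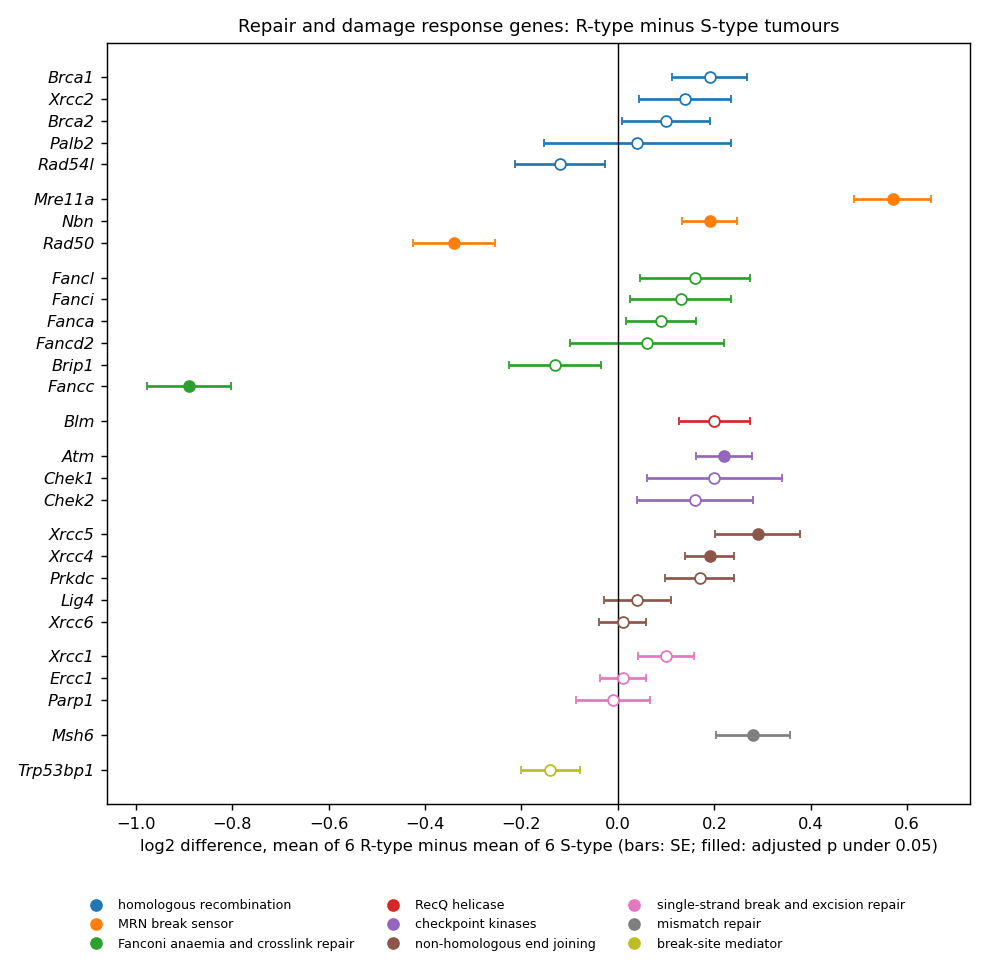
Difference between 6 R-type and 6 S-type tumours for each of the 28 repair genes, on the log2 scale, grouped by role. Points are differences of means, bars are standard errors, and filled points passed the test. Fancc (-0.89) and Mre11a (0.57) stand apart, and the other 26 genes lie between -0.34 and 0.29.

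Fancc had a lowest, median and highest value of -1.45, -1.33 and -0.80 in R-type tumours and of -0.61, -0.34 and -0.18 in S-type tumours. Every R-type tumour lay below every S-type tumour, by a mean of -0.89 (SE 0.0876, adjusted p = 8.31e-05), or 0.541 of the S-type level. Within the 4 slides of the experiment, each of which held both types, the difference ran from -1.07 to -0.77. At the shared dose of 0.2 Gy it was -1.20 (SE 0.124, adjusted p = 0.00042), and on the 2 slides with both groups it was -1.18 and -1.15. In that comparison 4.77% of all genes passed, 1.99% higher and 2.78% lower, and among the members Mre11a was the other one to pass. Groups of 3 did not overlap in 6 members, 3 higher and 3 lower, and in 32.5% of all genes.

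Mre11a had a lowest, median and highest value of 1.47, 1.56 and 1.69 in R-type tumours and of 0.74, 1.07 and 1.15 in S-type tumours. The groups did not overlap, and the mean difference was 0.57 (SE 0.0799, adjusted p = 0.000864), or 1.48-fold. Its second probe gave 0.43 (adjusted p = 0.00335). Within slides the difference ran from 0.39 to 0.74, and with no scaling between arrays it was 0.35. At 0.2 Gy Mre11a was higher by 0.55 (adjusted p = 0.0219), a call that was lost in 6 of 24 alternative settings, with adjusted p up to 0.0849. Those were no scaling between arrays (0.30), a fit of the compared groups alone, and the loss of MB4, MB6, MB8 or MB9.

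Rad50, which works in the same complex as Mre11a, went the other way. It was at -0.61, -0.48 and -0.67 in R-type tumours after 1.5 Gy, -0.75, -0.61 and -0.74 in R-type after 0.2 Gy, -0.12, -0.18 and -0.58 in S-type after 0.2 Gy, -0.25, -0.45 and -0.24 in S-type with 0 Gy, and -1.62, -1.66 and -1.82 in normal cerebellum. The types overlapped through the S-type tumour MB6 and the R-type tumour MB11. Rad50 was lower in R-type by a mean of -0.34 (SE 0.0852, adjusted p = 0.0168), with -0.58 to -0.09 within slides and -0.56 with no scaling between arrays. At 0.2 Gy it was at -0.40 (adjusted p = 0.0788), and without MB6 it passed there while Mre11a no longer did. Nbn, the last subunit, was higher by 0.19 (adjusted p = 0.0317), with -0.04 to 0.32 within slides.

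**Figure D4:**
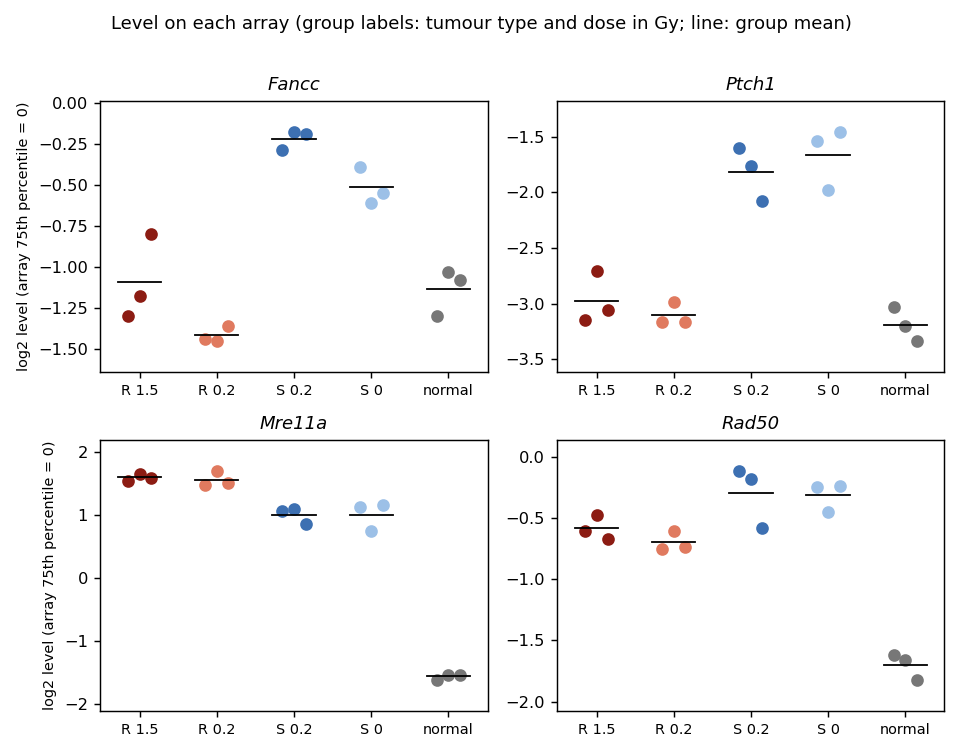
Level of Fancc, Ptch1, Mre11a and Rad50 on each of the 15 arrays, as log2 signal relative to the array's 75th percentile, with a line at each group mean (R and S give the tumour type, numbers the dose in Gy). Fancc and Ptch1 are low in R-type tumours and near the normal cerebella, Mre11a is highest in R-type tumours, and the mean of Rad50 in R-type tumours lies between the S-type and the normal means.

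The remaining calls were small. Xrcc5 was higher in R-type by 0.29 (adjusted p = 0.0374), Msh6 by 0.28 (adjusted p = 0.025), Atm by 0.22 (adjusted p = 0.0224) and Xrcc4 by 0.19 (adjusted p = 0.0193), and each overlapped between the types. With the slide as a fixed block, Msh6 (adjusted p = 0.0643), Nbn (adjusted p = 0.0633) and Xrcc4 (adjusted p = 0.0561) did not pass. Of the 24 alternative settings, Nbn lost its call in 12, Xrcc5 in 11, Msh6 in 9, Atm in 5 and Xrcc4 in 3. The array's 75th percentile itself was 1184 to 1367 signal units on R-type arrays and 1237 to 1611 on S-type arrays, so leaving it out shifts the difference of every gene by -0.22. None of these 5 genes was called higher without it, and 577 of 6382 calls over all genes were higher in R-type, against 2360 of 4543 with it. The second Atm probe gave 0.11 (adjusted p = 0.223), the second Nbn probe 0.15 (adjusted p = 0.147) and the second Xrcc4 probe 0.27 (adjusted p = 0.00882). A second probe of Chek2 was higher by 0.45 (adjusted p = 0.00794), where the main one gave 0.16 (adjusted p = 0.356). Without MB6 or without MB9 4 members passed, and without MB10 or MB11 5 did.

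The other members did not pass between the types. Among them were Brca1 (0.19, SE 0.0775, adjusted p = 0.106), Blm (0.20, SE 0.0731, adjusted p = 0.0742), Chek1 (0.20, SE 0.14, adjusted p = 0.335) and Fancd2 (0.06, SE 0.16, adjusted p = 0.817). The end joining genes Prkdc (0.17, SE 0.0717, adjusted p = 0.121) and Xrcc6 (0.01, SE 0.0488, adjusted p = 0.874) and the single-strand break genes Parp1 (-0.01, SE 0.0771, adjusted p = 0.911) and Xrcc1 (0.10, SE 0.0586, adjusted p = 0.265) were in the same position. At an unadjusted p under 0.05, 12 of 28 members and 7689 of 21661 genes passed. The smallest spread over the 12 tumours among members was that of Ercc1 (SD 0.0548) and the largest that of Fancc (SD 0.506), with a median SD of 0.158, compared with 0.262 for all genes tested.

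Of the 123 other repair genes, 25 were higher and 6 lower in R-type tumours, with a median of 0.10. Of all genes tested 10.9% were higher and 10.1% lower, with a median of 0.02. Uimc1, which brings Brca1 to ubiquitin at breaks, had a lowest, median and highest value of 1.13, 1.26 and 1.35 in R-type and of 2.10, 2.23 and 2.37 in S-type tumours, a difference of -0.99 (SE 0.0602, adjusted p = 3.59e-06) with no overlap. Rif1, the partner of Trp53bp1 in protecting ends, differed by -0.60 (adjusted p = 0.00133). In base excision repair 7 of 18 genes were higher and none lower, among them the glycosylases Mpg (0.66, adjusted p = 0.000503) and Nthl1 (0.38). The median of that list was 0.19, and leaving out the scaling between arrays shifts every gene by -0.22. Alkbh3, which reverses alkylation damage, was higher by 0.52 (adjusted p = 0.000529) and the polymerase Poli by 0.31. At 0.2 Gy Uimc1 (-1.11), Mpg (0.63) and Alkbh3 (0.56) passed. None of the 10 other end joining genes passed limma's test between the types, or had an unadjusted p under 0.05, and the calls in the remaining lists lay between -0.22 and 0.39 for the named genes Xrcc3 (0.39), Gtf2h3 (0.39), Fancm (0.34), Recql4 (0.33), Wrn (0.28), Gtf2h4 (0.27), Pms1 (0.24), Sfr1 (0.22) and Slx4 (-0.22).

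Fancc and Xrcc4 are the only members on chromosome 13, and Fancc is next to Ptch1 in the order of the tested genes on that chromosome, while Xrcc4 is 81 places further along. Among the 9 other genes within 5 places of Ptch1, 6 were lower in R-type tumours and none higher, with a median of -0.69. Over all 483 tested genes of chromosome 13, 155 were lower and 36 higher, with a median of -0.29. Ptch1 was lower in R-type by -1.30 (SE 0.119, adjusted p = 5.27e-05). Of the 9 repair genes of all lists on chromosome 13, Uimc1 (53 places before Ptch1) and Fancc were lower, Xrcc4 and the excision repair gene Ercc8 (0.31, adjusted p = 0.0271) higher, and Msh3, Polk, Gtf2h2, Rad17 and Tdp2 did not pass. On the other chromosomes 29 of 142 repair genes were higher and 6 lower, with a median of 0.10. Of all genes tested 10.9% were higher and 10.1% lower. At 0.2 Gy the same 9 neighbours of Ptch1 had a median of -0.61, with 5 lower and none higher.

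**Figure D5:**
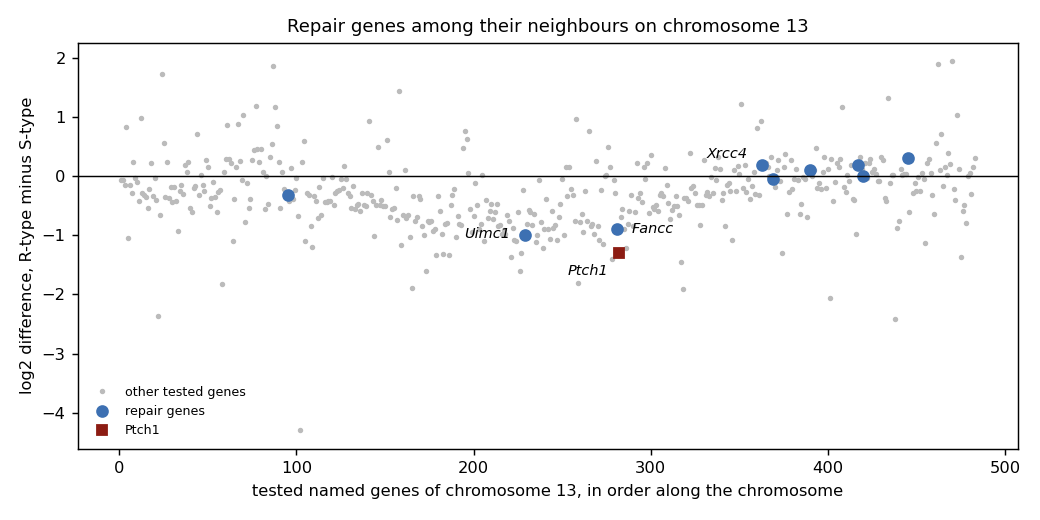
Difference between R-type and S-type tumours, on the log2 scale, for 483 tested named genes of chromosome 13 in their order along it, with the 9 repair genes and Ptch1 marked. Values sink below 0 in the middle of the order, where Uimc1, Fancc and Ptch1 lie, and Xrcc4 lies beyond at 0.19.

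The dose comparisons held few changes anywhere. Between S-type tumours after 0.2 Gy and S-type tumours with 0 Gy no member passed, and 0.00462% of all genes did, which is 1 gene. The members ran from -0.26 to 0.30, and 1 had an unadjusted p under 0.05 in limma's test, Fancc (0.30, SE 0.124, adjusted p = 0.832). Between R-type tumours after 1.5 Gy and after 0.2 Gy no member passed either, and 0.0692% of all genes did, which is 15 genes. There the members ran from -0.15 to 0.32, and again only Fancc had an unadjusted p under 0.05 (0.32, SE 0.124, adjusted p = 0.626). In both comparisons the 3 Fancc values at the higher dose lay above the 3 at the lower dose. In S-type tumours this held for 1 of 28 members and 4.6% of all genes. In R-type tumours it held for 3 of 28 members and 6.33% of all genes. Both counts of 0 were the same in all alternative settings run.

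Among the tumours, MB2 held the lowest value for 16 of the 28 members, and MB6 for 5. MB2 and MB6 also had the lowest means of the dividing-cell list, 2.90 and 3.06, against 3.16 to 3.48 in the other tumours. MB2 had the highest 75th percentile of all arrays as well, 1611 signal units, which is taken from every gene. How often each tumour was lowest over all genes tested was not counted, and the part of either was not tested. The highest value was spread over more tumours, with MB10 holding 6, MB4 and MB11 holding 4 each and MB5 and MB8 holding 3 each. Without MB2, as with it, 26 members passed against normal cerebellum. Between R-type and S-type tumours 6 passed without it and 8 with it, with a median difference of 0.07 against 0.12. Between the S-type doses the members' median was -0.01 without it and 0.10 with it.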

How the data were processed

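Per the file headers, the deposited scanner files hold the intensity of each spot, subtracted for background and corrected for spatial trends by the authors' scanner software, with no scaling between arrays. The submitters' processing notes name that software as Agilent Feature Extraction 9.5.1. Control spots were left out, 76 of 41174 probes were dropped for outlier flags, and the log2 of the deposited intensity was taken relative to the array's 75th percentile over probes. Probes were named through RefSeq accessions (17154 symbols), the brightest probe on average stood for each gene, and 21661 genes with at least 3 arrays well above background were compared with limma 3.58.1 in R 4.3.3 (5 group means, eBayes, Benjamini-Hochberg threshold 0.05, two-sided). Groups of 3 arrays limit the precision. Tables were made with Python 3.11.15. The fit was tested on simulated data.

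The authors' deposited table of log2 values followed the scanner values in direction (lowest correlation per array 0.99993). That correlation does not depend on the scale or shift of a column. The sum of MB1 and MB2 was at most 1e-06 in size at any probe, so the table was centred on their mean. Why these arrays were chosen is not known. The table was used as an alternative. Its median differences over all genes were those of the scaled scanner values, 0.14 between tumour and normal cerebellum and 0.02 between the types. Its column medians were 0.0908, 0.152 and 0.099 for MB10 to MB12, 0.0703, 0.13 and 0.127 for MB7 to MB9, 0.0682, -0.0795 and 0.0525 for MB4 to MB6, 0.0506, -0.0506 and 0.106 for MB1 to MB3, and 0.00242, 0.082 and 0.0892 for the normal arrays.

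The members and lists were chosen with earlier results of these data known. Values per sample are given for the 6 members with the largest fitted change between tumour and normal cerebellum, for members that passed between the types without overlap and for 1 member per role. Among these, the text gives the tumour values of Fancd2, Blm, Parp1, Msh6 and Trp53bp1 only as lowest, median and highest. Of each other list the 3 smallest adjusted p between tumour and normal cerebellum and the 2 smallest between types are named, except some that are not reported here. Mus81, Paxx, Slx4, Polk and Rev3l between tumour and normal cerebellum, Rad50's values per sample and the chromosome 13 repair genes were chosen after their values were seen. Sex, age and type letters are as the labels give them. Sequences are from RefSeq, build GRCm38.p6. The labels do not say that samples of a group came from separate litters or were processed apart, and p-values measure the spread between these samples.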

Additional observations from a re-analysis of the deposited data

How the results depend on the processing

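The 26 members higher in tumours became 23 with no scaling between arrays, which shifts every gene by -0.18, and stayed between 24 and 26 under the other settings. Between R-type and S-type, the 8 passing members became 3 with no filter on dim probes, 5 with the slide as a fixed block and 4 to 9 when 1 array was left out. Without scaling 9 passed, 1 higher and 8 lower against 6 and 2, with 3 shared, and with normexp 3364 of 4977 calls over all genes were higher, against 2360 of 4543. At 0.2 Gy those higher were 158 of 2673 without scaling and 806 of 1335 with normexp, against 430 of 1033. Leaving out the scaling shifts every gene by -0.22, and 19 of 22 positive differences turned negative, among them Nbn (-0.0283), Atm (-0.00139), Xrcc4 (-0.0265), Xrcc6 (-0.207) and Ercc1 (-0.21). At 0.2 Gy, 2 passing members became 4 without scaling, all lower, 1 in a fit of the groups compared alone (Fancc) and 1 to 2 with 1 array left out. The single counts there came without MB4, MB8 or MB9. The cause was not tested. No paired analysis was possible because the groups share no replicate numbers, and the slide was the only block fitted. Signal over background limits Brip1, Fancd2 and Chek2 in normal cerebellum to bounds. None of 56 groups of 6 tumours looked at held a value far apart from its group by Dixon's test.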

Other observations

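Tdp2, which frees DNA ends from trapped topoisomerase and lies on chromosome 13, was singled out after its values were seen. It was at 3.25, 2.31 and 3.30 in R-type tumours after 1.5 Gy, 2.16, 3.24 and 2.22 in R-type after 0.2 Gy, 3.10, 3.09 and 2.96 in S-type after 0.2 Gy, 3.12, 2.90 and 3.17 in S-type with 0 Gy, and 2.19, 2.03 and 2.22 in normal cerebellum. MB7, MB9 and MB11 lay at the level of the normal arrays, and the other 9 tumours between 2.90 and 3.30.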
